A study of Mus musculus with 2 samples.

Results

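The 31 genes described here carry glucose from the plasma membrane to lactate or to the mitochondrial gate, together with 4 genes of the hypoxia response (Hif1a, Vegfa, Bnip3 and Egln3). They were taken by symbol from the 31053 genes of the deposited gene table. All 31 were found, in 32 rows, because Aldoa has 2 rows that were summed. Bone marrow was taken from old C57BL/6J recipients of a faecal microbiota transplant, whose donors were young in the FMT_young group and aged in the FMT_aged group. Each group has 1 single-cell RNA library. Recipients were aged in both groups, so by the labels the groups differ in the age of the microbiota donor, and the ages in weeks and the number of animals per library are not given in the sources used here. Sorted whole marrow, lineage-negative cells and lineage-negative Kit-positive cells were mixed in parts of 1 to 1 to 4, so progenitors are more common here than in unsorted marrow. Per-cell barcodes and unique molecular identifiers (UMIs) of the 10x Genomics 3′ kit v3 gave the counts. A UMI marks 1 transcript at its 3′ end, so UMI numbers are not divided by transcript length when genes are set side by side.

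Glycolysis splits glucose into pyruvate in the cytosol and yields a small amount of ATP. Pyruvate then becomes lactate through lactate dehydrogenase or enters mitochondria, where the pyruvate dehydrogenase complex, held in check by the PDK kinases, turns it into acetyl-CoA. HIF-1alpha, encoded by Hif1a, is degraded in oxygen after hydroxylation by prolyl hydroxylases such as that of Egln3. When oxygen is low it raises transcription of many of these genes. In marrow, long-lived stem cells are known for a low metabolic rate and a reliance on glycolysis, and neutrophils for making nearly all their ATP that way.

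The libraries held 214982156 (FMT_young) and 207642851 (FMT_aged) UMIs. Cell calling and doublet removal left 10793 and 10320 cells, and the median cell had 10775 and 11217.5 UMIs. Clustering was done without the 31 genes, other pathway genes and immunoglobulin genes, and its 28 clusters gave 14 cell classes named from marker lists, 13 of them with at least 50 cells in each library. Names such as HSC-like (haematopoietic stem cell), MPP-like (multipotent progenitor) and GMP-like (granulocyte-monocyte progenitor) describe transcripts and not sort gates. T/NK stands for the class like T, NK or innate lymphoid cells, and basophil group for the class like basophils, eosinophils or mast cells. Summed HSC markers stood at 1778 and 1777 CPM (UMIs scaled to a common total, the CPM of the next paragraph) in the HSC-like class against 73.8 and 78.2 in the GMP-like class, with all 12 markers detected. The MPP-like class held 483 and 568 CPM of them. The 8 MPP markers stood at 1386 and 1290 CPM in the MPP-like class, below the 2301 and 2319 of the HSC-like class. The 8 GMP markers stood at 15128 and 14874 CPM in the MPP-like class and 48684 and 50482 in the GMP-like class. These lists also served to name the classes. Most plasma-like cells lay in cluster 6 in FMT_young (968 of 1115 cells) and in cluster 13 in FMT_aged (545 of 676). Neutrophil progenitor-like cells lay most often in cluster 9 in FMT_young (647 of 1323) and in cluster 10 in FMT_aged (261 of 572). The libraries shared 34 cell barcodes, with 19.9 expected from random draws.

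Levels are in CPM, a gene's UMIs per 1000000 UMIs outside immunoglobulin genes, summed over the cells of a class, and each pair of values gives FMT_young first and FMT_aged second. A ratio between the libraries is log2 of the FMT_young level over the FMT_aged level, with its exact 95% interval. Intervals cover counting error only, UMIs within a library share its preparation, and with 1 library per group there is no replicate check and no test: the values compare these 2 libraries and not the treatments.

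The genes took the largest share of transcripts in myeloid progenitors and the smallest in B-lineage cells. Together the 31 genes stood at 6331 and 6613 CPM in GMP-like cells, 6177 and 6114 in neutrophil progenitor-like cells and 6155 and 6444 in monocyte progenitor-like cells. Neutrophil-like cells followed with 5825 and 5669.6, monocyte-like cells with 5189.8 and 5220.3 and MPP-like cells with 5047 and 5244. The basophil group was at 4069.9 and 5049 and HSC-like cells at 3446 and 3786, where the GMP-like sum was 0.84 higher on the log2 scale as a mean of the libraries. Conventional dendritic-like cells stood at 3482 and 3218 CPM and macrophage-like cells at 3513 and 3090.4. The lowest sums were in T/NK cells (2535 and 2552), plasmacytoid dendritic-like cells (2273 and 2244), mature B-like cells (2008 and 2086) and plasma-like cells (1979 and 1914). Neighbours in this order that changed places between the libraries were the neutrophil progenitor-like and monocyte progenitor-like classes, the monocyte-like and MPP-like classes, and the macrophage-like, conventional dendritic-like and HSC-like classes among themselves. Gapdh, the dehydrogenase of the middle of the pathway, carried 1065 to 2076 CPM of the FMT_young sums in the 3 stem and progenitor classes HSC-like, MPP-like and GMP-like, and the order of these 3 classes was the same without it (2381, 3208 and 4255 CPM). Of the 31 genes, 15 reached 100 CPM in at least 1 class as a mean of the libraries and 16 did not.

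**Figure D1:**
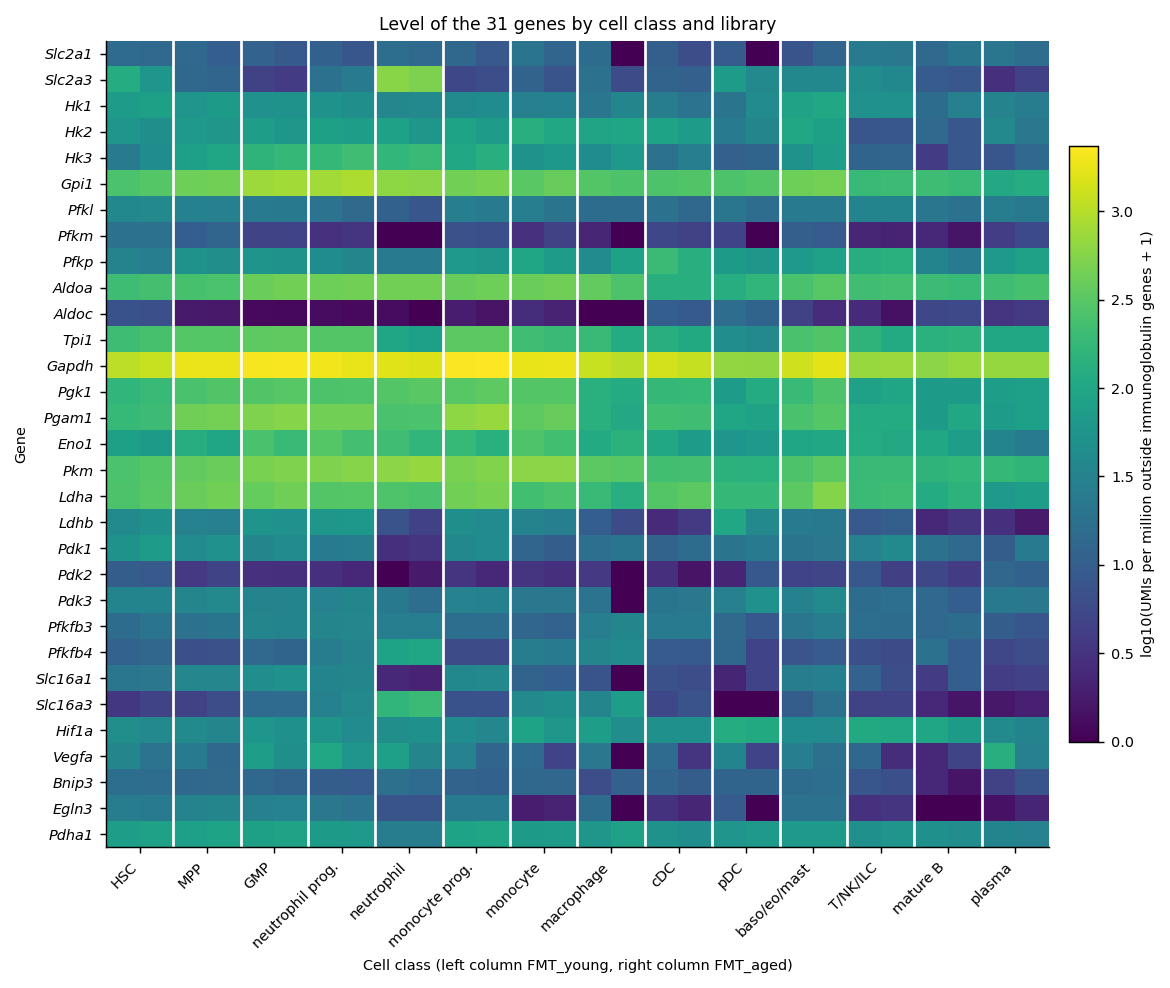
Heat map of the 31 genes (rows) in 14 cell classes (columns, FMT_young left and FMT_aged right in each pair), coloured by log10(CPM + 1). Gapdh is the brightest row, Slc2a3 is bright in neutrophil-like cells (592 and 506 CPM) and HSC-like cells (121 and 57.1 CPM), and Pfkm and Aldoc are near 0 in most classes.

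Glucose entry was divided between 2 facilitative transporters. Slc2a3 (GLUT3, the high-affinity carrier) stood at 121 and 57.1 CPM in HSC-like, 12.6 and 11.6 in MPP-like, 3.53 and 2.99 in GMP-like, 17.1 and 23.8 in neutrophil progenitor-like and 4.44 and 5.44 in monocyte progenitor-like cells. Its mature myeloid values were 592 and 506 CPM in neutrophil-like, 10.7 and 6.497 in monocyte-like, 17.1 and 4.86 in macrophage-like, 10.7 and 9.89 in conventional dendritic-like, 72.7 and 37.7 in plasmacytoid dendritic-like and 36.5 and 36.2 in basophil group cells. Lymphoid values were 43.3 and 36.8 CPM in T/NK, 8.69 and 7.33 in mature B-like and 1.89 and 3.51 in plasma-like cells. Neutrophil-like cells were far above all other classes, and HSC-like cells were next. Slc2a3 had at least 1 UMI in 601 of 737 FMT_young and 445 of 588 FMT_aged cells of the neutrophil-like class and in 290 of 724 FMT_young and 314 of 1009 FMT_aged cells of the HSC-like class. Plasma-like cells had one in 12 of 1115 FMT_young and 12 of 676 FMT_aged cells, with 6356388 and 3986725 UMIs outside immunoglobulin genes in all, against 6256655 and 9200900 in the 724 and 1009 HSC-like cells, so they were sampled less deeply per cell. The deeper GMP-like cells, with medians of 26670 and 28966 UMIs, had one in 112 of 1451 FMT_young and 118 of 1480 FMT_aged cells. Barcodes with under 100 UMIs, which hold free RNA, stood at 43.7 and 27.7 CPM. Within neutrophil-like cells the cluster led by Acod1 and Il1b (cluster 19, 200 and 212 cells) held 1029.7 and 862 CPM, and the cluster led by Stfa2 and Mmp8 (cluster 8, 537 and 376 cells) 508 and 408. Slc2a1 (GLUT1, the basal carrier) was even by comparison, from 22.8 CPM in T/NK cells to 4.31 in plasmacytoid dendritic-like cells as means of the libraries. Of the UMIs of both carriers, Slc2a3 took 97.4% (96.7 to 98.1%) and 97.4% (96.5 to 98.2%) in neutrophil-like cells, 89.5% and 81.3% in HSC-like cells, 25.3% and 27.3% in GMP-like cells and 8.63% and 18.9% in plasma-like cells.

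Each hexokinase, which traps glucose as glucose 6-phosphate, led in a different set of cells. Hk3, a myeloid isozyme, stood at 24.5 and 42.8 CPM in HSC-like, 79.4 and 93.4 in MPP-like, 154 and 175 in GMP-like, 174 and 213 in neutrophil progenitor-like and 102 and 129.7 in monocyte progenitor-like cells. In mature myeloid classes it was at 170.4 and 189 CPM in neutrophil-like, 53.2 and 61.5 in monocyte-like, 42.1 and 63.2 in macrophage-like, 17.8 and 26.4 in conventional dendritic-like, 9.85 and 11.3 in plasmacytoid dendritic-like and 50.5 and 75.3 in basophil group cells, and in lymphoid classes at 11.1 and 11.5 CPM in T/NK, 2.897 and 7.33 in mature B-like and 7.08 and 13.3 in plasma-like cells. Its level was higher at each step from HSC-like through MPP-like to GMP-like cells, and neutrophil-like cells were near the GMP-like level. Hk2, the inducible isozyme bound to mitochondria, ranged less among progenitors, 56.3 and 46.7 CPM in HSC-like, 64.7 and 59.3 in MPP-like, 75.97 and 60.5 in GMP-like, 81.5 and 73.5 in neutrophil progenitor-like and 89.9 and 70.1 in monocyte progenitor-like cells. Mature myeloid values were 82.6 and 60.5 CPM in neutrophil-like, 132 and 103 in monocyte-like, 92.1 and 97.2 in macrophage-like, 87.6 and 70.02 in conventional dendritic-like, 23.4 and 33.9 in plasmacytoid dendritic-like and 101 and 80.01 in basophil group cells, and lymphoid values 6.96 and 7.33 CPM in T/NK, 13.04 and 7.33 in mature B-like and 36.97 and 21.3 in plasma-like cells. Monocyte-like cells were at the top and T/NK cells at the bottom. Hk1, the housekeeping isozyme, was highest in the basophil group (85.9 and 99.4 CPM) and HSC-like cells (69.7 and 80.1). As shares of hexokinase UMIs, Hk1 made up 73.6% (67.8 to 78.8%) and 72.8% (67.8 to 77.4%) in T/NK cells and 46.3% (43.1 to 49.6%) and 47.2% (44.7 to 49.7%) in HSC-like cells. Hk2 made up 67.1% (62.8 to 71.2%) and 61.1% (56.4 to 65.6%) in conventional dendritic-like cells and 61.7% and 53.2% in monocyte-like cells, and Hk3 59.04% (55.96 to 62.1%) and 65.8% (62.3 to 69.2%) in neutrophil-like and 55.2% and 61.1% in GMP-like cells.

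The upstream sequences of the 3 hexokinase genes are shown because the genes divide the cell classes between them. They are the 250 bases before the RefSeq start of each gene (GRCm38.p6), with ACGTG or GCGTG on either strand, the core to which HIF dimers can bind, in capitals.
Hk1 (chr10:62379909-62380158, minus strand): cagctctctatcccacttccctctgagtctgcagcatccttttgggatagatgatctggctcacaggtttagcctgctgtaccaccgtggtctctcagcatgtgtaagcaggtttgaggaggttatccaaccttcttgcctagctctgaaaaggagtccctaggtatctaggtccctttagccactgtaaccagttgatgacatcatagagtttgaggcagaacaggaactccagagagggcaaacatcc
Hk2 (chr6:82774455-82774704, minus strand): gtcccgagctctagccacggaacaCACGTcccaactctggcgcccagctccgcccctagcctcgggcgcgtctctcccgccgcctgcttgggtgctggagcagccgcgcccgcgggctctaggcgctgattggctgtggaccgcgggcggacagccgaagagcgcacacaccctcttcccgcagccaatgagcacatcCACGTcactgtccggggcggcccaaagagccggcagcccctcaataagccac
Hk3 (chr13:55021386-55021635, minus strand): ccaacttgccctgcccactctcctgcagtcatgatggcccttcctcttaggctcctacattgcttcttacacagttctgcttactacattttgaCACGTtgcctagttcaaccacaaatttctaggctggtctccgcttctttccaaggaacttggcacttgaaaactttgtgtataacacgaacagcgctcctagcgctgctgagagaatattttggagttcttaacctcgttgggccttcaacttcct
The Hk1 window holds 0 matches, the Hk2 window 2 and the Hk3 window 1. Of 30 members with a RefSeq window (all but Slc2a3), 24 (80%) held at least 1 match in their first window, against 38.6% of the first windows of 27025 genes. The members' windows also held more CpG dinucleotides, a median of 14 against 6, and both motifs contain a CpG. A match is a run of letters and says nothing of binding in these cells.

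**Figure D2:**
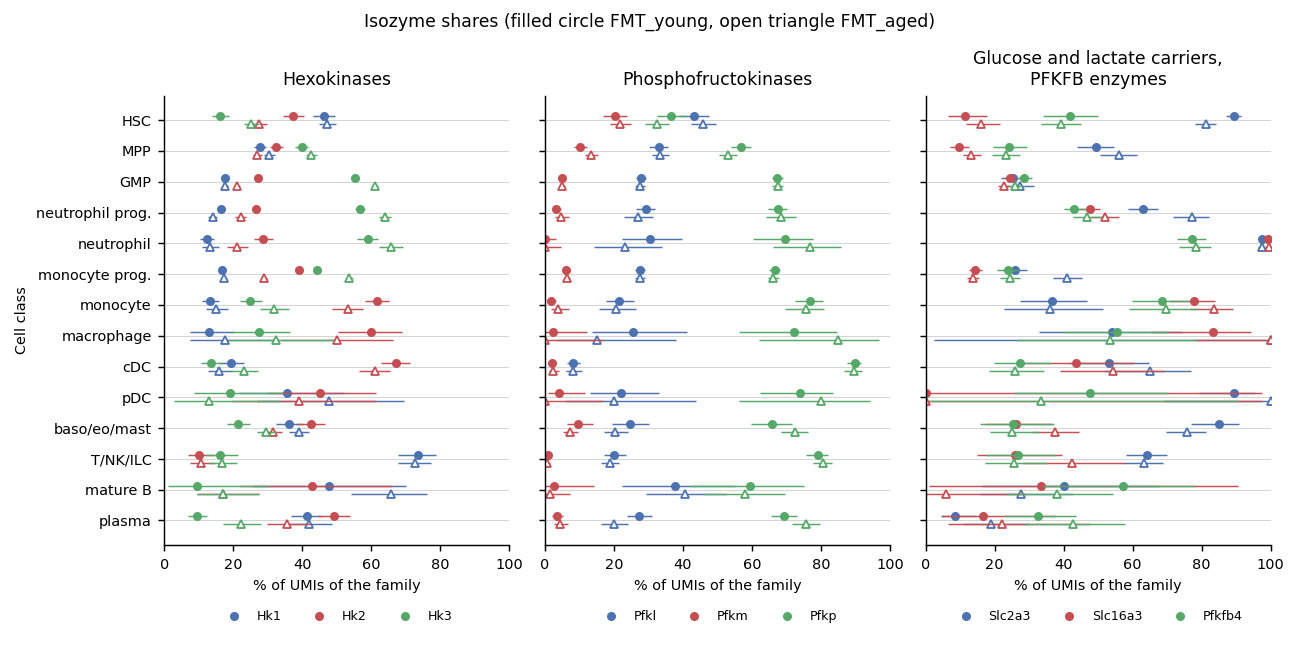
Share of UMIs within each isozyme family (x axis, %) by cell class (y axis), with exact Clopper-Pearson 95% intervals, filled circles for FMT_young and open triangles for FMT_aged. Slc2a3 is a share of Slc2a1 plus Slc2a3, Slc16a3 of Slc16a1 plus Slc16a3 and Pfkfb4 of Pfkfb3 plus Pfkfb4, and in FMT_young neutrophil-like cells these shares are 97.4%, 99.1% and 77.2%, while the leading hexokinase changes from class to class.

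The next steps of the pathway were widely transcribed. Gpi1, glucose phosphate isomerase, stood at 259 and 301 CPM in HSC-like, 414 and 450.3 in MPP-like, 744 and 796 in GMP-like, 803 and 889.5 in neutrophil progenitor-like and 440.4 and 484 in monocyte progenitor-like cells. It was at 628 and 613 CPM in neutrophil-like, 319.99 and 381 in monocyte-like, 289 and 262 in macrophage-like, 266 and 282 in conventional dendritic-like, 264 and 290.4 in plasmacytoid dendritic-like and 417 and 466 in basophil group cells, and at 187 and 204 CPM in T/NK, 210.03 and 192 in mature B-like and 106 and 120.1 in plasma-like cells. The granulocyte path from GMP-like to neutrophil-like cells held the highest values. Phosphofructokinase, which commits sugar to glycolysis, had Pfkp as its main transcript outside HSC-like cells. Pfkp stood at 31.01 and 26.5 CPM in HSC-like, 50.9 and 45.1 in MPP-like, 54.6 and 52.99 in GMP-like, 42.3 and 34.4 in neutrophil progenitor-like and 64.8 and 59.1 in monocyte progenitor-like cells. Its other myeloid values were 23.1 and 22.8 CPM in neutrophil-like, 95.7 and 68.8 in monocyte-like, 40.8 and 82.6 in macrophage-like, 196 and 134 in conventional dendritic-like, 66.5 and 60.3 in plasmacytoid dendritic-like and 65.4 and 83.8 in basophil group cells, and its lymphoid values 126 and 138 CPM in T/NK, 31.9 and 24.2 in mature B-like and 64.2 and 84.8 in plasma-like cells. Conventional dendritic-like cells were highest in FMT_young, where Pfkp made up 89.8% (87.6 to 91.8%) and 89.5% (86.7 to 91.8%) of phosphofructokinase UMIs. In HSC-like cells the liver-type Pfkl had the largest share (43.2% (38.9 to 47.5%) and 45.9% (42.3 to 49.5%)), followed by Pfkp (36.6% and 32.4%) and the muscle-type Pfkm (20.2% and 21.8%). Pfkm was at 17.1 and 17.8 CPM in HSC-like cells and 3.903 and 3.92 in GMP-like cells, and no UMI was seen in neutrophil-like cells of either library, where 3 UMIs would be 0.846 and 1.14 CPM.

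Aldolase and the steps around triose phosphate followed. Aldoa, the main aldolase, stood at 211 and 234 CPM in HSC-like, 242 and 259 in MPP-like, 409 and 450.3 in GMP-like, 420.4 and 444 in neutrophil progenitor-like and 381 and 415 in monocyte progenitor-like cells. It was at 445 and 448 CPM in neutrophil-like, 403 and 429 in monocyte-like, 362 and 262 in macrophage-like, 129 and 131 in conventional dendritic-like, 126 and 166 in plasmacytoid dendritic-like and 250.05 and 308 in basophil group cells, and at 213 and 227 CPM in T/NK, 204 and 186 in mature B-like and 216 and 243 in plasma-like cells. Of its 2 rows, ENSMUSG00000030695 (chromosome 7, 126795234 to 126800751, GRCm38) held 50437 and 54948 UMIs and the second 2 and 3. Aldoc, the brain-type aldolase, reached 100 UMIs in no class, and its highest values were 14.8 and 11.3 CPM in plasmacytoid dendritic-like, 9.16 and 8.12 in conventional dendritic-like and 6.07 and 5.65 in HSC-like cells. Tpi1, triose phosphate isomerase, stood at 209 and 242 CPM in HSC-like, 299.6 and 301 in MPP-like, 338 and 349.99 in GMP-like, 296 and 293 in neutrophil progenitor-like and 325 and 331 in monocyte progenitor-like cells. It was at 95.9 and 78.4 CPM in neutrophil-like, 217 and 191 in monocyte-like, 188 and 117 in macrophage-like, 132 and 109 in conventional dendritic-like, 43.1 and 37.7 in plasmacytoid dendritic-like and 253 and 285 in basophil group cells, and at 154 and 112 CPM in T/NK, 142 and 149.9 in mature B-like and 101 and 99.8 in plasma-like cells. Neutrophil-like cells were low for Tpi1 beside their neighbours. Gapdh was the most abundant member in all 14 classes, at 1065 and 1208 CPM in HSC-like, 1839 and 1854 in MPP-like, 2076 and 2153 in GMP-like, 1948 and 1791 in neutrophil progenitor-like and 2240.4 and 2330.4 in monocyte progenitor-like cells. It was at 1602 and 1544 CPM in neutrophil-like, 1817 and 1874 in monocyte-like, 1200.1 and 1045 in macrophage-like, 1365 and 1193 in conventional dendritic-like, 660.2 and 637 in plasmacytoid dendritic-like and 1335 and 1699 in basophil group cells, and at 706 and 734 CPM in T/NK, 609.8 and 707 in mature B-like and 681 and 676 in plasma-like cells.

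The last steps of the pathway make ATP and pyruvate. Pgk1, phosphoglycerate kinase, stood at 162 and 192 CPM in HSC-like, 252 and 287 in MPP-like, 281 and 312 in GMP-like, 263 and 275 in neutrophil progenitor-like and 311 and 345 in monocyte progenitor-like cells. It was at 289 and 321 CPM in neutrophil-like, 293 and 294 in monocyte-like, 136 and 117 in macrophage-like, 173 and 179 in conventional dendritic-like, 70.2 and 117 in plasmacytoid dendritic-like and 193 and 267 in basophil group cells, and at 84.6 and 98.2 CPM in T/NK, 68.1 and 67.1 in mature B-like and 74.4 and 78.3 in plasma-like cells. Pgam1, phosphoglycerate mutase, stood at 180.4 and 206 CPM in HSC-like, 433 and 462 in MPP-like, 515 and 574 in GMP-like, 452 and 452 in neutrophil progenitor-like and 628 and 694 in monocyte progenitor-like cells. It was at 249.6 and 257 CPM in neutrophil-like, 344 and 386 in monocyte-like, 138 and 107 in macrophage-like, 220.03 and 216 in conventional dendritic-like, 93.6 and 86.7 in plasmacytoid dendritic-like and 249 and 299 in basophil group cells, and at 116 and 115 CPM in T/NK, 68.1 and 99.7 in mature B-like and 69.9 and 78.01 in plasma-like cells. Monocyte progenitor-like cells led for both genes. Eno1, alpha-enolase, stood at 81.4 and 68.4 CPM in HSC-like, 124 and 96.1 in MPP-like, 247 and 193 in GMP-like, 298 and 229.6 in neutrophil progenitor-like and 179.8 and 137 in monocyte progenitor-like cells. It was at 216 and 164 CPM in neutrophil-like, 273 and 219 in monocyte-like, 113 and 146 in macrophage-like, 104 and 71.5 in conventional dendritic-like, 57.9 and 64.1 in plasmacytoid dendritic-like and 97.7 and 104 in basophil group cells, and at 122 and 108 CPM in T/NK, 103 and 74.9 in mature B-like and 31.6 and 23.1 in plasma-like cells. Its intronless copy Eno1b held 34 and 41 UMIs beside 26994 and 20908 for Eno1 in the named classes, and reads that fit both cannot be assigned. Pkm, pyruvate kinase, stood at 257 and 305 CPM in HSC-like, 366 and 392 in MPP-like, 492 and 524 in GMP-like, 522 and 576 in neutrophil progenitor-like and 489 and 528 in monocyte progenitor-like cells. It was at 611 and 688 CPM in neutrophil-like, 597 and 597 in monocyte-like, 330.3 and 306 in macrophage-like, 221 and 231 in conventional dendritic-like, 144 and 139.5 in plasmacytoid dendritic-like and 264 and 332 in basophil group cells, and at 186 and 185 CPM in T/NK, 155 and 167 in mature B-like and 175 and 159 in plasma-like cells. Neutrophil-like and monocyte-like cells led for Pkm.

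Lactate production and export differed by class. Ldha, the subunit that favours lactate formation, stood at 269 and 313 CPM in HSC-like, 409 and 451 in MPP-like, 374 and 434 in GMP-like, 292 and 302 in neutrophil progenitor-like and 443 and 482 in monocyte progenitor-like cells. It was at 277 and 253 CPM in neutrophil-like, 221 and 247 in monocyte-like, 193 and 126 in macrophage-like, 290.1 and 331 in conventional dendritic-like, 172 and 173 in plasmacytoid dendritic-like and 329.8 and 549 in basophil group cells, and at 197 and 206 CPM in T/NK, 117 and 152 in mature B-like and 64.5 and 73.5 in plasma-like cells. Ldhb, the subunit that favours lactate use, made up 12.7% and 10.4% of lactate dehydrogenase UMIs in GMP-like cells, 2.19% and 1.34% in neutrophil-like cells and 36.7% (30.3 to 43.4%) and 17.9% (8.91 to 30.4%) in plasmacytoid dendritic-like cells. Slc16a3 (MCT4, the lactate exporter of glycolytic cells) stood at 2.56 and 3.91 CPM in HSC-like, 3.68 and 5.41 in MPP-like, 14.2 and 14.3 in GMP-like, 29.2 and 36.98 in neutrophil progenitor-like and 6.05 and 6.002 in monocyte progenitor-like cells. Mature myeloid values were 163 and 197 CPM in neutrophil-like, 37.3 and 46.6 in monocyte-like, 32.9 and 72.9 in macrophage-like, 4.45 and 6.34 in conventional dendritic-like, 0 and 0 in plasmacytoid dendritic-like and 8.74 and 16.4 in basophil group cells, and lymphoid values 3.61 and 3.96 CPM in T/NK, 1.45 and 0.564 in mature B-like and 0.629 and 1.003 in plasma-like cells. Slc16a1 (MCT1, which carries lactate both ways) ran the other way from GMP-like to neutrophil-like and monocyte-like cells. In HSC-like cells both carriers were lower than in GMP-like cells. Slc16a1 stood at 43.8 and 48.8 CPM in GMP-like, 34.8 and 35.5 in MPP-like and 1.41 and 1.14 in neutrophil-like cells. The last values came from 5 and 3 UMIs. Slc16a3 thus made up 99.1% (98.01 to 99.7%) and 99.4% (98.3 to 99.9%) of the UMIs of both carriers in neutrophil-like cells, 77.7% and 83.6% in monocyte-like cells and 24.4% and 22.6% in GMP-like cells.

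The switches on either side of the pathway also differed between progenitors and mature cells. PFKFB enzymes set fructose 2,6-bisphosphate, the activator of phosphofructokinase. Pfkfb4 stood at 88.8 and 95.1 CPM in neutrophil-like cells, 25.1 and 31.3 in neutrophil progenitor-like cells and 13.1 and 11.2 in GMP-like cells, while Pfkfb3 stood at 26.2 and 26.2, 33.2 and 35.7 and 32.6 and 31.8 there. Pfkfb4 was therefore 77.2% (72.8 to 81.2%) and 78.4% (73.4 to 82.8%) of the UMIs of both in neutrophil-like cells and 28.6% and 26.05% in GMP-like cells. Pdk1, the kinase that blocks pyruvate entry in hypoxia, was highest in HSC-like cells at 52.6 and 71.3 CPM and low in neutrophil-like cells at 1.97 and 2.28, from 7 and 6 UMIs. Pdk3 made up 91.8% (83.8 to 96.6%) and 83.7% (70.3 to 92.7%) of PDK UMIs in neutrophil-like cells against 45.9% and 42.4% in GMP-like cells. Pdk2 was at most 12.1 CPM in any class and library, in FMT_young plasma-like cells. Pdha1, the catalytic subunit that these kinases act on, was at 88.6 and 95.04 CPM in monocyte progenitor-like and 25.4 and 24.7 in neutrophil-like cells.

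Hif1a itself stood at 45.2 and 37.3 CPM in HSC-like, 39.3 and 33.1 in MPP-like, 57.4 and 48.4 in GMP-like, 54.5 and 40.7 in neutrophil progenitor-like and 41.9 and 35.1 in monocyte progenitor-like cells. Mature myeloid values were 45.1 and 48.7 CPM in neutrophil-like, 89.6 and 60.4 in monocyte-like, 76.3 and 43.7 in macrophage-like, 48.4 and 47.7 in conventional dendritic-like, 121 and 109 in plasmacytoid dendritic-like and 42.9 and 41.5 in basophil group cells, and lymphoid values 109 and 103 CPM in T/NK, 98.5 and 67.1 in mature B-like and 39.96 and 32.4 in plasma-like cells. Plasmacytoid dendritic-like, T/NK and mature B-like cells were at the upper end, and MPP-like, monocyte progenitor-like and plasma-like cells at the lower. Vegfa, the vascular growth factor, was high in granulocyte progenitors (101 and 55.9 CPM) and GMP-like cells (76.5 and 46.1) and, in FMT_young, in plasma-like cells (129.6 and 28.1). Egln3, an oxygen sensor that marks HIF protein for decay, was transcribed in progenitors (31.3 and 33.8 CPM in MPP-like cells) and low in monocyte-like (0.867 and 1.15) and plasma-like (0.472 and 1.25) cells, with no UMI in mature B-like cells. Bnip3, a mitophagy receptor, stayed at or under 16.4 CPM in every class, with 15.5 and 15.2 in HSC-like and 16.4 and 14.1 in neutrophil-like cells.

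Stem cells against committed progenitors gave the first of 4 contrasts between classes, in which a gene was counted where it was at least 2-fold apart in both libraries among genes with at least 100 UMIs. In HSC-like over GMP-like cells 4 of 31 members were higher and 7 lower, where 20% of 11390 genes were higher and 7.15% lower. The median member ratio was -0.44 in FMT_young and -0.40 in FMT_aged, beside 0.21 and 0.28 over all genes. The 4 higher members were Slc2a3 (log2 5.10 and 4.26), Aldoc (4.91 and 4.95, from 38 and 52 UMIs in HSC-like cells), Pfkm (2.13 and 2.18) and Pdk2 (2.09 and 2.06). The lower members were Hk3 (-2.65 and -2.03), Slc16a3 (-2.47 and -1.87), Eno1 (-1.60 and -1.49), Gpi1 (-1.52 and -1.40), Pgam1 (-1.51 and -1.48), Slc16a1 (-1.12 and -1.26) and Vegfa (-1.15 and -1.36). Aldoa, Gapdh and Pkm lay just short of the 2-fold line, at -0.96 and -0.95, -0.96 and -0.83 and -0.94 and -0.78. HSC-like cells had a median of 7506.5 and 7963 UMIs and GMP-like cells 26670 and 28966, and the part of depth in these ratios was not tested.

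Neutrophil-like over GMP-like cells gave 3 higher and 11 lower members of 30 tested, where 11.8% of 10859 genes were higher and 53.6% lower. Most genes were thus lower in neutrophil-like cells, with a median over all genes of -1.38 and -1.36, and the members' median was -0.36 and -0.45. Slc2a3 (7.39 and 7.40), Slc16a3 (3.53 and 3.79) and Pfkfb4 (2.76 and 3.09) were higher: a glucose importer, a lactate exporter and a PFKFB enzyme. Slc16a1 (-4.96 and -5.42), Pdk1 (-4.13 and -4.19), Ldhb (-3.13 and -3.87), Egln3 (-2.13 and -2.22), Tpi1 (-1.82 and -2.16) and Pdha1 (-1.68 and -1.78) were lower. The other lower members were Pfkl (-1.15 and -1.66), Pfkp (-1.24 and -1.22), Pgam1 (-1.04 and -1.16), Pfkm and Pdk2. Pfkm, with no UMI in neutrophil-like cells, was at least 4.61-fold and 3.44-fold lower there, taking 3 UMIs per library as the floor. Pdk2 was at least 2.44-fold lower in FMT_young, with no UMI, and its ratio in FMT_aged rested on 2 UMIs (log2 -1.26). Hk2, Hk3, Gpi1, Aldoa, Pgk1, Eno1 and Pkm lay between -0.38 (Gpi1 in FMT_aged) and 0.39 (Pkm in FMT_aged) on the log2 scale, on a background where 53.6% of all genes were at least 2-fold lower. A setting chosen after seeing the data left out the shallow cluster 19. It gave 3 members higher and 9 lower, with the share of all genes not given. As means of the libraries the log2 ratios were then -6.84 for Slc16a1, from 1 and 1 UMIs in cluster 8, -5.56 for Pdk1, from 4 and 1 UMIs, -3.33 for Egln3, from 13 and 4 UMIs, and 3.24 for Slc16a3.

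**Figure D3:**
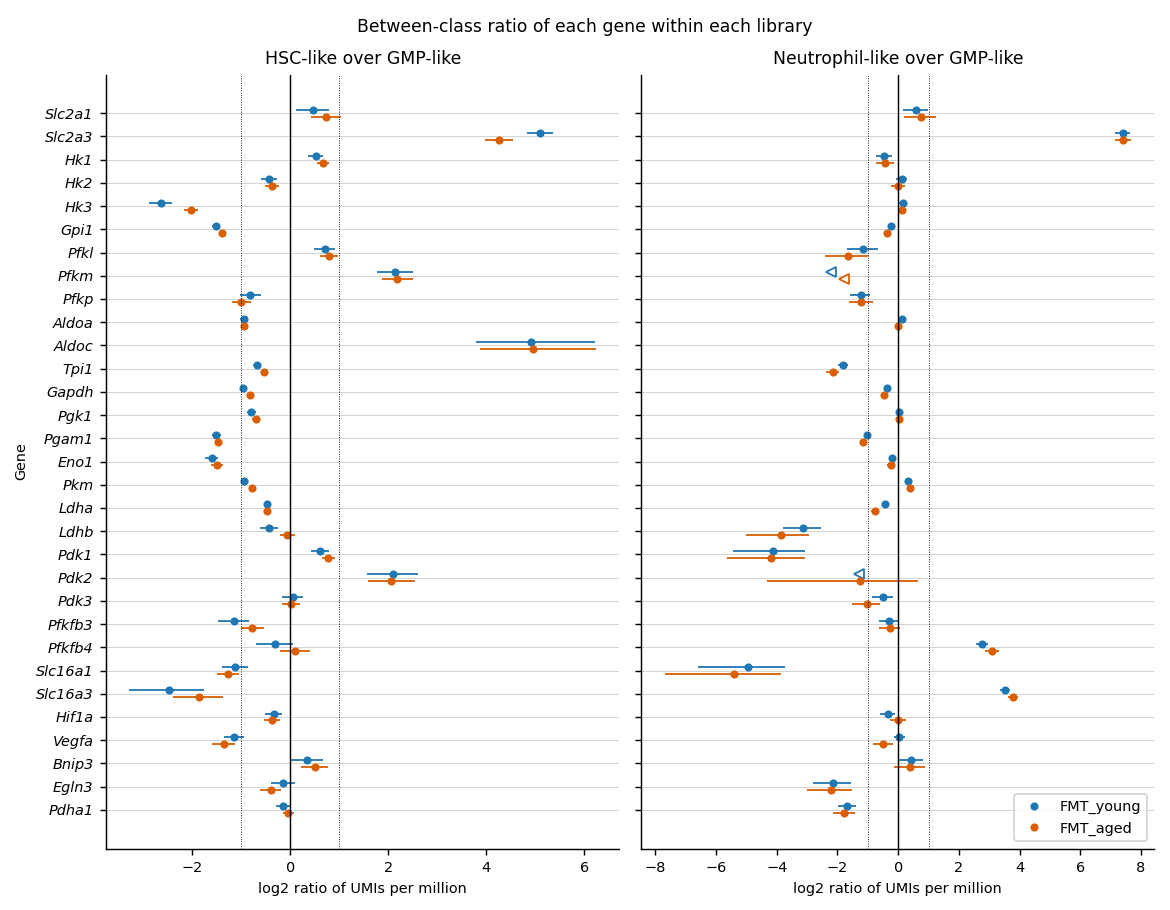
Log2 ratio of CPM (x axis) of each gene (y axis) in HSC-like over GMP-like cells (left) and neutrophil-like over GMP-like cells (right), points per library with exact 95% intervals, dotted lines at 2-fold, and open triangles where a class held no UMI, placed at the bound given by 3 UMIs. Slc2a3 is far to the right in both panels, and Slc16a3 is on the left in the first panel and on the right in the second.

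Monocyte-like over GMP-like cells gave 2 higher and 7 lower members of 30, where 13.7% of all genes were higher and 13.9% lower. Slc2a3 (1.60 and 1.12) and Slc16a3 (1.40 and 1.71) were higher again, both by less than in neutrophil-like cells in each library. Slc2a3 had a UMI in 14 of 344 FMT_young and 14 of 265 FMT_aged monocyte-like cells. These shares, 4.07% and 5.28%, were below the 7.72% and 7.97% of the deeper GMP-like cells. In FMT_young 1 cell held 12 of the UMIs. The Slc2a3 level in monocyte-like cells was under the 43.7 and 27.7 CPM of free RNA. Neutrophil markers stood at 5039 and 4696 CPM in this class, and their part in the ratio was not tested. Egln3 (-5.04 and -4.71), Vegfa (-2.46 and -3.59), Slc16a1 (-2.03 and -2.41), Pdk1 (-1.58 and -2.25), Hk3 (-1.53 and -1.505), Pfkfb3 (-1.46 and -1.62) and Gpi1 (-1.22 and -1.06) were lower. The Egln3 values rest on 3 UMIs in each library of the monocyte-like class. These contrasts share the GMP-like cells, so their ratios are not independent of each other. Plasma-like over mature B-like cells gave 4 higher and 2 lower members of 22, where 12.2% of genes were higher and 7.15% lower. Hk2 (1.504 and 1.54), Pfkp (1.01 and 1.81), Pdk2 (1.48 and 1.83) and Vegfa (6.48 and 2.83) were higher, and Eno1 (-1.70 and -1.70) and Hif1a (-1.30 and -1.05) lower. Vegfa rests on 1 and 7 UMIs in mature B-like cells. Plasma-like cells gave 61.6% and 60.8% of their UMIs to immunoglobulin genes and mature B-like cells 3.61% and 4.94%. Having these genes in the totals lowers this ratio for every other gene. The counts of members were then 1 higher and 11 lower, and the share of all genes is not given.

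Between the libraries most of these genes differed little. The median member ratio lay between -0.16 in the basophil group and 0.05 in plasma-like cells in 12 of 13 classes, and was 0.22 in macrophage-like cells, where 9 members had 100 UMIs. Both ends of this range depend on the processing: the plasma-like median was 0.34 with classes by marker score and 1.46 with free RNA subtracted, the basophil group median -0.067 after centring on all genes, and the macrophage-like median 0.0070 without doublet removal and -0.039 by marker score. In HSC-like cells the median of 29 members was -0.15 (-0.21 to 0.11, order statistics of the members), with 10 higher and 19 lower in FMT_young, beside -0.11 over 9360 genes. In GMP-like cells it was -0.03 over 30 members (-0.08 to 0.12) and -0.05 over all genes. MPP-like cells had -0.10 (-0.17 to -0.01, 30 members; -0.06 over all genes) and the basophil group -0.16 (-0.33 to -0.07, 26 members; -0.10 over all genes). The log2 ratio of the summed level was -0.14 in HSC-like, -0.06 in GMP-like, 0.04 in neutrophil-like and -0.31 in the basophil group. In the basophil group the sum thus lay further from 0 than the median, as in conventional dendritic-like cells (0.11, median 0.02). Sum and median had opposite signs in mature B-like (-0.06, median 0.02) and neutrophil progenitor-like cells (0.01, median -0.02).

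A member was counted as apart between the libraries at 1.5-fold or more with at least 100 UMIs, which 14 member and class pairs met upward in FMT_young and 5 downward. HSC-like cells had 2 higher and 1 lower, where 2.64% of all genes tested were past that fold upward and 2.74% downward. GMP-like cells had 1 and 0 (all genes 2.3% and 1.05%, upward and downward in this and the following brackets) and MPP-like cells 1 and 1 (1.98% and 1.14%). Neutrophil progenitor-like cells had 1 and 0 (3.38% and 1.2%), neutrophil-like cells 1 and 0 (2.96% and 2.18%) and monocyte progenitor-like cells 3 and 0 (2.61% and 0.982%). Macrophage-like cells had 2 and 0 (8.5% and 7.44%), the basophil group 1 and 2 (3.68% and 4.74%) and plasma-like cells 2 and 1 (5.01% and 7.42%). None was counted in monocyte-like (3.2% and 1.41%), conventional dendritic-like (5.63% and 2.56%), T/NK (2.08% and 2.64%) or mature B-like cells (5.84% and 9.21%). Vegfa made up 8 of the 14 upward pairs. With at least 30 UMIs in place of 100, there were 25 pairs upward and 14 downward. The share of all genes past the fold at that minimum is not given.

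**Figure D4:**
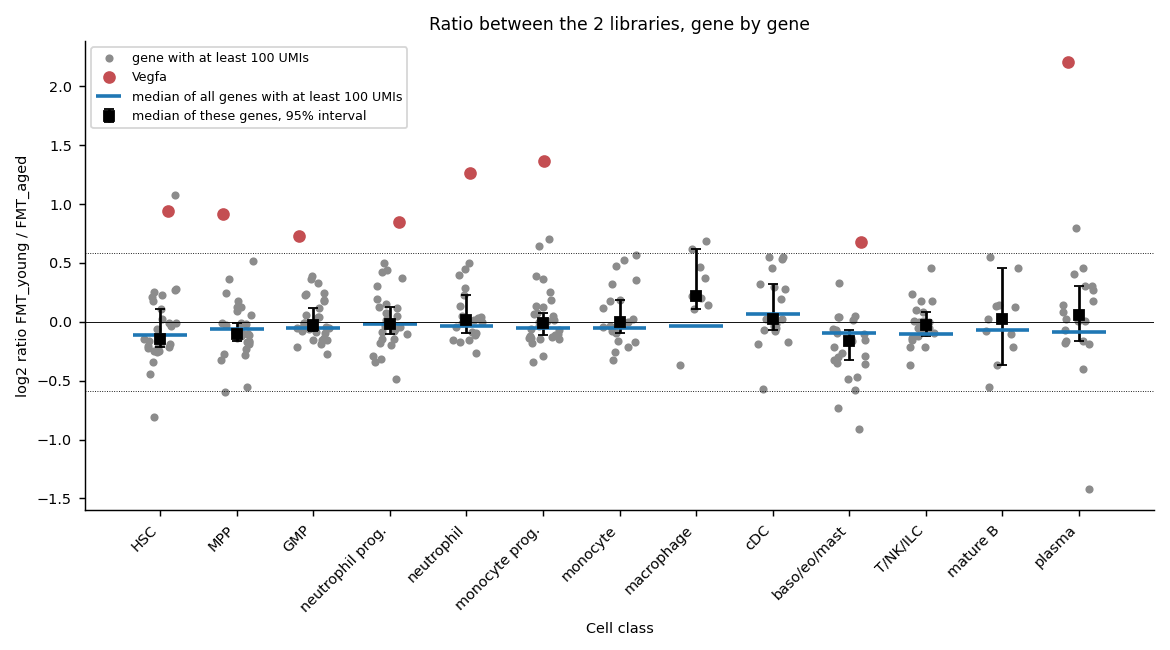
Log2 ratio FMT_young over FMT_aged (y axis) of each of the 31 genes with at least 100 UMIs in 13 cell classes (x axis), with the members' median and its 95% order-statistic interval (black), the median of all genes tested (blue) and 1.5-fold (dotted). Most genes lie near 0, and Vegfa (red) is above the upper dotted line in the 8 classes where it had 100 UMIs.

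Vegfa was higher in the FMT_young library in all 8 classes where it had 100 UMIs. In HSC-like cells it stood at 34.4 and 17.9 CPM (0.94, interval 0.64 to 1.24), in MPP-like cells at 22.9 and 12.2 (0.91) and in GMP-like cells at 76.5 and 46.1 (0.73, interval 0.65 to 0.81). Neutrophil progenitor-like cells held 101 and 55.9 CPM (0.85), neutrophil-like cells 78.4 and 32.7 (1.26, interval 0.91 to 1.63) and monocyte progenitor-like cells 29.7 and 11.5 (1.36). The CPM intervals of the libraries did not overlap in these 6 classes or in plasma-like cells. These intervals cover counting error only and are narrow at this depth. The share of all genes whose intervals did not overlap is not given, so this does not set Vegfa apart from other genes. In the basophil group the values were 26.2 and 16.4 CPM (0.68, interval 0.19 to 1.17), and the ratio was -0.46 after subtraction of free RNA. In plasma-like cells they were 129.6 and 28.1 CPM (2.21, interval 1.92 to 2.50), but most of these cells lay in different clusters in the 2 libraries: in cluster 6 alone the values were 144 and 77.6 CPM (0.89) and within cluster 13 43.8 and 17.4 (1.33). At least 1 Vegfa UMI was found in 155 of 724 FMT_young and 120 of 1009 FMT_aged cells of the HSC-like class and in 451 of 1115 FMT_young and 84 of 676 FMT_aged cells of the plasma-like class. Free RNA moved the same way, with 97.5 and 37.1 CPM in barcodes under 100 UMIs, above 12 of 14 classes in each library. Its estimated part of the UMIs was 23.8% and 4.88% in neutrophil progenitor-like cells, whose 13 neutrophil markers stood at 85660 and 125224 CPM. Those cells also lay most often in different clusters in the 2 libraries. The part of these differences in their Vegfa ratio was not tested. Mature B-like cells held 1 and 7 UMIs (1.45 and 3.94 CPM), and the ratio in the other 7 classes was 0.65 to 2.53 over all alternatives, free RNA subtraction included. In the HSC-like cells without neutrophil UMIs described for Slc2a3 further on, the Vegfa ratio was 0.83 with an interval across 0 (-0.08 to 1.69).

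The sequence before the first RefSeq start of Vegfa is shown because this gene was at least 1.5-fold apart in the most classes, 8, and that of Pdk1 because it was lower in FMT_young in all 8 of its classes. Both are the 250 bases upstream in GRCm38.p6, with ACGTG or GCGTG on either strand in capitals.
Vegfa (chr17:46032378-46032627, minus strand): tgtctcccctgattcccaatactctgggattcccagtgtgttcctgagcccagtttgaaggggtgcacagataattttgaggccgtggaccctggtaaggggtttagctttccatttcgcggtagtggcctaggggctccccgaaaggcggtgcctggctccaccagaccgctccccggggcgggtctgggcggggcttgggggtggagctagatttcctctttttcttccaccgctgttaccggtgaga
Pdk1 (chr2:71872974-71873223, plus strand): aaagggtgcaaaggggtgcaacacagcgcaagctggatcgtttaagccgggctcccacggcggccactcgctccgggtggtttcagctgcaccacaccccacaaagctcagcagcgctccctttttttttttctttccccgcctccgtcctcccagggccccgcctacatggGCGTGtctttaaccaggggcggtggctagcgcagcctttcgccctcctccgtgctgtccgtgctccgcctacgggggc
The Vegfa window holds 0 matches and the Pdk1 window 1. The window covers only these bases, and other regulatory sequence was not searched.

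**Figure D5:**
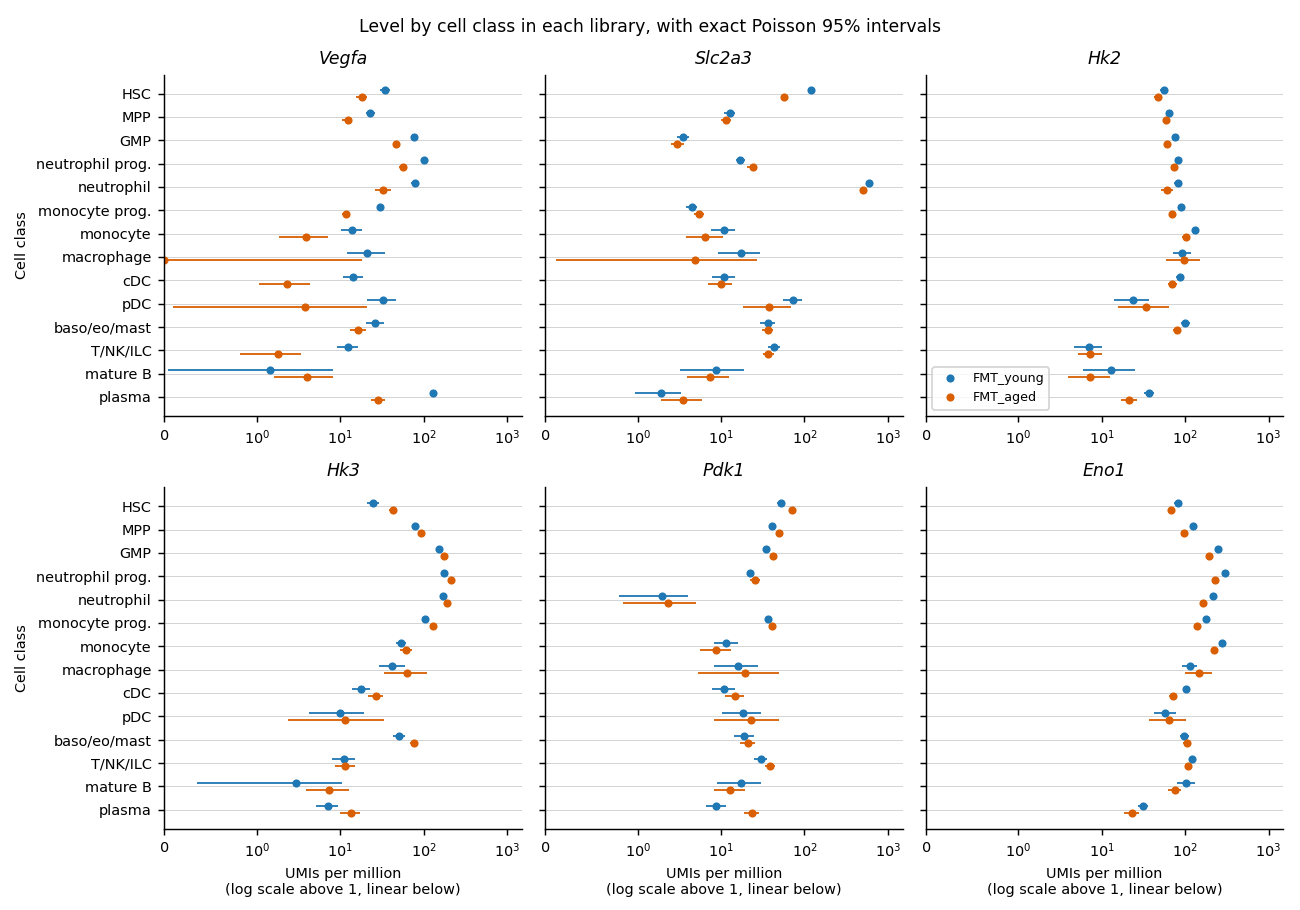
Level (x axis, CPM, logarithmic above 1 and linear below) of 6 genes by cell class (y axis) in FMT_young (blue) and FMT_aged (orange), points with exact Poisson 95% intervals. Blue points lie to the right for Vegfa and Hk2 and to the left for Hk3 and Pdk1 in most classes, and Slc2a3 separates the libraries mainly in HSC-like cells (121 and 57.1 CPM).

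In HSC-like cells Slc2a3 had the largest difference, 121 and 57.1 CPM from 755 and 525 UMIs (1.08, interval 0.92 to 1.24). Of the HSC-like cells, 40.1% had a UMI of it in FMT_young and 31.1% in FMT_aged, and its ratio was 0.13 in MPP-like and 0.24 in GMP-like cells. Over its 8 classes with 100 UMIs it was higher in FMT_young in 6 and lower in 2. Neutrophil markers moved with it, 397.5 and 209 CPM over 13 markers in HSC-like cells with none at 0, and so did monocyte markers, 914 and 475 CPM over 10, of which 1 was at 0 in FMT_young and none in FMT_aged. Neutrophil-like cells themselves had 389389 and 408516 CPM of the neutrophil markers beside 592 and 506 CPM of Slc2a3. In the 84 and 244 HSC-like cells without a UMI of 10 neutrophil genes, a choice made after seeing the data, the ratio was 0.85 (0.38 to 1.31). Hk3 went the other way, 24.5 and 42.8 CPM (-0.81, interval -1.09 to -0.54), and in that smaller set it was -0.63 with an interval across 0 (-1.71 to 0.31). Over all alternatives Slc2a3 stayed between 0.85 and 1.19 and Hk3 between -0.93 and -0.52.

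Of the hexokinases, Hk2 and Hk3 differed in opposite directions. Hk2 was higher in FMT_young in all 10 classes with 100 UMIs (0.13 to 0.79, median 0.33), with the interval above 0 in 9, and Hk3 was lower in all 10 (-0.81 to -0.05, median -0.26), with the interval below 0 in 7. Hk2 reached 1.5-fold in plasma-like cells alone (36.97 and 21.3 CPM; 0.79, interval 0.43 to 1.17), with 1.28 for cluster 6 and 0.53 for cluster 13. That ratio was 2.66 with free RNA subtracted and 0.77 to 1.01 under the other alternatives. HSC-like Hk2 took 37.4% and 27.5% of hexokinase UMIs and Hk3 16.3% and 25.2%, and in GMP-like cells Hk2 took 27.3% and 21.2%. Hk1 was mixed, 3 classes higher and 8 lower. Free RNA held 78.1 and 55.5 CPM of Hk2, in the direction of the classes. Of Hk3 it held 167 and 158 CPM, in the opposite direction to the classes. The part of free RNA in the counts of classes was not tested.

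Among the enzymes further down, Eno1 was higher in FMT_young in 11 of 13 classes (median 0.37, up to 0.53), with 10 intervals above 0, while Pgk1, Aldoa and Ldha were each lower in 11 of 13. GMP-like cells show the size of this, with 247 and 193 CPM of Eno1 (0.36, interval 0.32 to 0.40) and 281 and 312 of Pgk1 (-0.15, interval -0.19 to -0.12). Eno1, Pgk1 and Aldoa reached 1.5-fold in no class. Ldha did so in 2 classes, and in the basophil group it stood at 329.8 and 549 CPM (-0.73, interval -0.85 to -0.62). Slc16a3 was also lower there, 8.74 and 16.4 CPM (-0.91, interval -1.65 to -0.22). MPP markers stood at 1089 and 648 CPM in the basophil group, and megakaryocyte or erythroid markers at 2230 and 1755 CPM. The markers of the group itself stood at 19227 and 19572 CPM. Its estimated free RNA was 18.2% and 1.39% of UMIs. The part of these differences in the Ldha and Slc16a3 ratios was not tested. In macrophage-like cells Ldha (193 and 126 CPM; 0.61, interval 0.01 to 1.28) and Tpi1 (188 and 117; 0.69, interval 0.06 to 1.38) were higher, from 26 and 24 UMIs in FMT_aged. These turned to -0.35 and -0.22 without doublet removal and to -0.17 and -0.10 with classes by marker score. In the same macrophage-like class neutrophil markers stood at 22693 and 656 CPM and late erythroid markers at 5748 and 253 CPM. Macrophage markers stood at 5547 and 5360 CPM. The part of these marker differences in the 2 ratios was not tested. In monocyte progenitor-like cells Slc2a1 stood at 12.7 and 7.82 CPM (0.70, interval 0.50 to 0.91), and it was higher in all 7 classes with 100 UMIs. Free RNA held more Slc2a1 in FMT_young too, 19.4 and 11.9 CPM, above 12 and 9 of 14 classes. It also held more Eno1, 125 and 93.4 CPM, and less Pgk1, Aldoa and Ldha. Over all alternatives, free RNA subtraction included, the monocyte progenitor-like ratio of Slc2a1 was 0.64 to 0.76.

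Most other members were at 1.5-fold in no class. Counts of classes, here and in the paragraph above, have a background that is itself below 0. The median of all genes tested ran from -0.11 in HSC-like to -0.02 in neutrophil progenitor-like cells, with 0.06 in conventional dendritic-like cells. Medians over classes of Gapdh (-0.04) and Slc16a1 (-0.08) lay inside that range. So did those of Aldoa (-0.09), Pkm (-0.10), Pdha1 (-0.07), Hk1 (-0.05), Pdk3 (-0.04), Pfkfb3 (-0.04), Pfkfb4 (-0.04), Pfkm (-0.03) and Egln3 (-0.03). Those of Gpi1 (-0.12), Pgam1 (-0.14), Pgk1 (-0.15), Ldha (-0.16), Hk3 (-0.26), Pdk1 (-0.28) and Slc16a3 (-0.32) lay below it. The share of all genes leaning lower is not given. Gpi1, Pgam1, Pkm and Gapdh leaned lower in FMT_young, in 10, 10, 9 and 8 of 13 classes, and no Gpi1, Pgam1 or Pkm interval lay above 0. Phosphofructokinase leaned higher, Pfkl in 8 of 10 and Pfkp in 8 of 11 classes, while Pfkm was lower in 3 of 4. Ldhb was higher in 5 of 7 classes (-0.26 to 0.19). The lactate carriers leaned lower, Slc16a1 in 6 of 6 (-0.16 to -0.01) and Slc16a3 in 6 of 7 classes. Pfkfb3 was lower in 6 of 9, Pfkfb4 in 5 of 7 and Pdha1 in 7 of 12 classes, and Aldoc had too few UMIs for a ratio.

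The kinases of pyruvate dehydrogenase did not move together. Pdk1 was lower in FMT_young in all 8 classes with 100 UMIs, by -0.13 to -1.42 with a median of -0.28 and 6 intervals below 0. Its largest difference was in plasma-like cells, 8.81 and 23.6 CPM (-1.42, interval -1.92 to -0.93), with -1.68 for cluster 6 and -0.48 for cluster 13. The HSC-like class held 52.6 and 71.3 CPM (-0.44, interval -0.63 to -0.25). Free RNA also held less Pdk1 in FMT_young, 30.3 and 43.1 CPM. Pdk2 was higher in monocyte progenitor-like cells (2.23 and 1.43 CPM; 0.65, interval 0.14 to 1.16) and lower in MPP-like cells (2.605 and 3.94; -0.60, interval -1.24 to 0.02, an interval that reaches 0). With classes by marker score the ratios were 0.14 (-0.46 to 0.74) and 0.00 (-0.59 to 0.58), neither at 1.5-fold. Pdk3 was higher in 4 and lower in 7 of 11 classes.

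Hif1a was higher in FMT_young in 11 of 12 classes (-0.11 to 0.57, median 0.25), with 7 intervals above 0 and no class at 1.5-fold. In monocyte-like cells it stood at 89.6 and 60.4 CPM (0.57, interval 0.29 to 0.86) and in HSC-like cells at 45.2 and 37.3 (0.28, interval 0.05 to 0.51). Free RNA also held more Hif1a in FMT_young, 56.3 and 43.5 CPM. Bnip3 (6 classes, -0.17 to 0.18) and Egln3 (6 classes, -0.11 to 0.19) had no interval apart from 0. In the classes with no member at 1.5-fold, the members with interval bounds farthest from 0 were as follows. Monocyte-like cells had Hif1a and Pfkp (0.48, interval 0.21 to 0.75) higher and Gpi1 (-0.25, interval -0.38 to -0.13) and Pgam1 (-0.17) lower. Conventional dendritic-like cells had Pfkp (0.55, interval 0.39 to 0.71) and Eno1 (0.53) higher and Hk3 (-0.57) and Ldha (-0.19) lower. The 10 markers of that class, none at 0, were themselves at 10512 and 18782 CPM, and 10 mature B markers at 13425 and 20727 CPM there, and their part in these differences was not tested. T/NK cells had Tpi1 (0.46, interval 0.29 to 0.63) and Eno1 (0.18) higher and Pdk1 (-0.37) and Pgk1 (-0.22) lower. Mature B-like cells had Hif1a (0.55, interval 0.10 to 1.00) and Eno1 (0.46) higher and Pgam1 (-0.55) and Gapdh (-0.21) lower. In these cells neutrophil markers stood at 3782 and 890 CPM, T/NK markers at 695 and 57.5 and plasma markers at 2131 and 3483. Their mature B markers stood at 18720 and 20180 CPM, and their estimated free RNA was 23.4% and 19.6% of UMIs. The part of these differences in the ratios was not tested.

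Other genes of the hypoxia response, a list of 30, leaned differently by class. In HSC-like cells 8 of 22 tested were higher and 14 lower in FMT_young (median -0.03, 3 at 1.5-fold upward and 0 downward, where 2.64% and 2.74% of all genes were), and in GMP-like cells 13 were higher and 10 lower (0.02). Neutrophil-like cells had 6 higher and 6 lower (0.04) and plasma-like cells 9 and 6 (0.20). Neutrophil progenitor-like cells had 15 and 6 (0.12) and the basophil group 10 and 5 (0.15). Cited2, a competitor of HIF for its coactivators, was higher in all 13 classes (0.62 to 2.32), with 296 and 161 CPM, 0.87 in HSC-like and 567 and 284 CPM, 1.00 in plasma-like cells. Ddit4, an mTORC1 inhibitor raised by stress, was higher in all 10 of its classes (0.04 to 2.11), with 39.2 and 21.6 CPM, 0.86 in HSC-like and 9.14 and 3.22 CPM, 1.51 in GMP-like cells. Plin2, a lipid droplet coat protein, was lower in all 11 of its classes (-0.79 to -0.03), with 17.3 and 22.3 CPM, -0.37 in HSC-like cells. P4ha1, a collagen prolyl hydroxylase, stood at 31.8 and 17.3 CPM, 0.88 in plasma-like cells, and Hif1an, which hydroxylates HIF, at 11.8 and 17.6 CPM, -0.57.

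The routes that leave or follow glycolysis were mostly slightly lower in FMT_young in HSC-like and GMP-like cells. The median of all genes was also below 0 there, at -0.11 in HSC-like and -0.05 in GMP-like cells. Medians of the pyruvate entry and other glycolysis genes in HSC-like cells were near that shift. So was the median of the gluconeogenesis and glycogen genes in GMP-like cells. The share of all genes that were lower is not given beside the counts. Of 15 citric acid cycle genes, 0 were higher and 15 lower in HSC-like cells (median -0.22 beside -0.11 over all genes), 1 and 14 in GMP-like cells (-0.19 beside -0.05) and 3 and 12 in plasma-like cells (-0.19 beside -0.09). Conventional dendritic-like cells, whose markers differed between the libraries as given above, had 11 higher and 4 lower (0.14, beside 0.06 over all genes). None of the HSC-like ratios reached 1.5-fold. Suclg1, a subunit of succinyl-CoA ligase, stood at 101 and 132 CPM, -0.38 in HSC-like and 170.2 and 206 CPM, -0.28 in GMP-like cells, and Sdha, a subunit of succinate dehydrogenase, at 97.02 and 124 CPM, -0.35 in HSC-like cells. The pentose phosphate genes were lower in 10 of 10 tested in both HSC-like (median -0.21) and GMP-like cells (-0.10), with Taldo1, transaldolase, at 175 and 225 CPM, -0.36 in HSC-like cells. Of the pyruvate entry genes 3 of 10 were higher in HSC-like cells (median -0.13), with Dld, the dehydrogenase subunit shared by several complexes, at 34.4 and 42.1 CPM, -0.29. The gluconeogenesis and glycogen genes had 1 of 9 higher in HSC-like cells (-0.23) and 5 of 10 in GMP-like cells (-0.05), where Pygm, muscle glycogen phosphorylase, stood at 3.88 and 1.62 CPM, 1.26. Of the other glycolysis genes 1 of 11 was higher in HSC-like cells (-0.11), with Pgm1, a phosphoglucomutase, at 12.5 and 20.3 CPM, -0.71.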

How the data were processed

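The 2 libraries of mouse marrow cells, 1 per group, were analysed. The deposited matrices hold raw UMI counts per gene and barcode; the deposited gene and barcode lists, of unit other, hold names. Reads were aligned to mm10 and counted with Cell Ranger, per the submitters' processing notes; its version was 3.1.0, per the file headers. With 1 replicate per group no p-value or standard error was computed.

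Cells were barcodes with at least 1000 UMIs, 500 genes and at most 10% mitochondrial UMIs, of which 11932 and 11351 were called. A doublet score after Scrublet, from 30 components and 2 simulated doublets for each cell, removed 1139 and 1031, 0.8% per 1000 cells. Alternatives, whose effects are given at the end, changed the limits on mitochondrial and total UMIs, doublet removal, clustering, class definition, scale, gene minimum, prior count and free RNA. Both libraries were clustered together without batch correction on 2000 variable genes, leaving out the members, other pathway lists and 393 immunoglobulin genes (40 components, 20 neighbours, Leiden at resolution 1.0; scikit-learn 1.9.0, leidenalg 0.10.2). Clusters were named from 16 marker lists: 3 or more markers in 10% of cells and 1.5-fold up, with a check on the top 10 leading genes and on clusters far below the median depth of their library. These thresholds were set after the clusters had been seen. Clusters of the monocyte or neutrophil class with Kit in 20% of cells were called progenitors. Of the kept cells 1029 and 775, in 3 clusters, stayed unnamed.

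UMIs were summed per class and library and divided by the total outside immunoglobulin genes. CPM have exact Poisson intervals, shares exact Clopper-Pearson intervals and log2 ratios exact conditional binomial intervals, all at 95%. A ratio with a count of 0 used a prior of 0.5. Genes needed 100 UMIs over both libraries. The ratio intervals were tried on simulated counts of HSC-like depth that held counting error only, and the median interval on simulated normal values. Clustering, class naming and variation between library preparations were not tested. Members and lists were chosen with earlier results of these data known. Members at 100 CPM in a class are given in every class, members at least 1.5-fold apart are named, otherwise the 2 per direction by interval bound, and up to 2 per direction are drawn from each other list. Gene positions are from GENCODE vM21 and upstream sequences from RefSeq.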

Additional observations from a re-analysis of the deposited data

How the results depend on the processing

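Among the alternative values of the class medians, counts and sums, 285 stayed, 17 moved further and 1 reversed. To stay meant within 1.5 times for counts and within the interval of the value reported for medians. For the GMP-like over HSC-like sum it meant a change under the standard deviation of the 2 library values. Among those of single genes and isozyme shares 591 stayed, 156 moved and 5 reversed. Ratios between the libraries were judged there by their interval, and contrasts and shares by that standard deviation. No paired analysis was possible because each group has 1 library. A limit of 5% mitochondrial UMIs gave 3 members lower in FMT_young, summed over classes, where the main count was 5, and 1 member higher in plasma-like over mature B-like cells in place of 4. With at least 30 UMIs per gene the sums were 25 higher and 14 lower (main 14 and 5), and the higher sum was 23 as a mean over cells and 23 with free RNA subtracted. Totals of all genes gave 1 member higher and 11 lower in plasma-like over mature B-like cells. That setting lowers this ratio for every gene outside immunoglobulin genes. Shares of all genes are not given for the counts under any alternative. At least 2000 UMIs per barcode gave 1 member higher in monocyte-like over GMP-like cells (main 2). The summed level in GMP-like over HSC-like cells, 0.84 on the log2 scale, was 0.89 with a limit of 20% mitochondrial UMIs, 0.89 without doublet removal and 0.94 as a mean over cells. The macrophage-like median, 0.22, was 0.0070 without doublet removal and -0.039 with classes by marker score. Marker-score classes also gave 0.14 in neutrophil progenitor-like cells and 0.34 in plasma-like cells. Subtracting free RNA gave a plasma-like median of 1.46, and centring on all genes a basophil group median of -0.067. In macrophage-like cells Tpi1 reversed to -0.22 and Ldha to -0.35 without doublet removal, and to -0.10 and -0.17 by marker score. Vegfa in the basophil group reversed to -0.46 with free RNA subtracted. The cause was not tested for these values. Macrophage-like cells have no value with free RNA subtracted, because their fraction could not be estimated. The 2 settings added after seeing the data left out shallow clusters and HSC-like cells with neutrophil UMIs. Without shallow clusters 9 members were lower in neutrophil-like over GMP-like cells (main 11). Depth limits the rarer classes, with 9 members at 100 UMIs in macrophage-like and 11 in mature B-like cells.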

Other observations

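Cells of 3 clusters stayed unnamed and entered no comparison. Cluster 4, with 777 and 580 cells and Elane and Prtn3 among its leading genes, held Hk3 at 148 and 116 CPM and Vegfa at 55.7 and 25.8 CPM (FMT_young first). Cluster 20, with 195 and 185 cells and the B-lineage genes Vpreb3, Ebf1 and Pax5 in the lead, held Vegfa at 11.8 and 24.9 CPM from 6 and 16 UMIs, so the order of the libraries there was the reverse of that in cluster 4. Plasmacytoid dendritic-like cells numbered 129 and 48 and were not compared between the libraries. They held Ldhb, the lactate dehydrogenase subunit that favours lactate use, at 99.8 and 37.7 CPM.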
